A study of Mus musculus with 9 samples.

Results

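The MHC class I antigen presentation genes are 10 genes of the pathway that displays peptides from inside the cell at its surface: H2-K1, H2-D1, B2m, Tap1, Tap2, Tapbp, Psmb8, Psmb9, Nlrc5 and Erap1. They were chosen by name, and all 10 were found among the 47643 genes of the count files and passed the filter on low counts. RNA came from FACS-sorted pancreatic ductal adenocarcinoma (PDAC) cells of mice, and was made into 6 GFP+ libraries of KPF and 3 Tm+ libraries of KPYYF tumors. In both genotypes, Flp recombinase from Pdx1-Flp, active in pancreatic cells, starts tumor formation and removes a Trp53 allele flanked by frt sites, and R26 carries FSF-CreER beside the Dual reporter, which makes EGFP and, after Cre, tdTomato (Tm). KPYYF mice carry in addition 2 floxed alleles of Yap, the coactivator that drives many of these tumors. All mice received a tamoxifen (TAM) diet once tumors could be felt, so the GFP+ KPF cells are cells that kept EGFP under TAM and the Tm+ KPYYF cells came from nodules that had grown back after Yap loss. Age, sex and days on TAM were not given for single libraries. Genotype, Yap status and reporter color changed together and cannot be told apart. Each library bears a mouse number, and KPF libraries 4504h and 4504s share number 4504.

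Class I molecules consist of a heavy chain and the light chain B2m, and they reach the surface only when loaded with a peptide. Peptides are cut by the proteasome, pumped into the endoplasmic reticulum by the Tap1 and Tap2 transporter, trimmed there, and loaded with the help of tapasin (Tapbp). Interferon raises the whole pathway and swaps catalytic subunits of the proteasome for Psmb8, Psmb9 and Psmb10. Nlrc5 is the transactivator that binds with RFX, CREB/ATF and NF-Y factors at class I promoters, and tumors often carry low levels of these genes, which hides them from CD8 T cells.

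The promoters of the members were read for short motifs of these factors, since most members were highest in the same pair of libraries. RefSeq (GRCm38.p6) had a window from 250 bases before to 50 bases after the start site for 8 of the 10 members. On either strand, the CRE half-site TGACG was in the windows of 5 of the 8 (B2m, H2-D1, H2-K1, Psmb9 and Tap1), against 20.9% of 32544 windows of all genes. The CCAAT box, CCAAT, was in 6 (the same 5 and Tapbp), against 37.4%. The Tap1 and Psmb9 windows share 275 bases, and their matches to both motifs lie on the same bases, so these are not separate sites. The core of the interferon-stimulated response element (ISRE) was in B2m and Erap1, against 3.45%, and the interferon gamma site GAS, TTCNNNGAA, in Psmb8 alone, against 8.33%. The TEAD core GGAATG, the site of the partners of Yap, was in Erap1 alone, against 14.6%. A match describes letters in the window and no match says only that these letters are not in it. The ISRE core was searched as 1 string, shown in capitals in the B2m stretch below, with the C and T in its middle free. Close variants of this string were not counted. The lack of a match in the other windows, those of H2-K1 and H2-D1 included, thus does not say that they hold no ISRE. The 150 bases before the start site are printed for the light chain and both heavy chains, because they hold the CRE half-site and CCAAT box side by side, and the 225 bases between the divergent start sites of Tap1 and Psmb9, because that pair shares 1 stretch. Capitals mark the ISRE core, the CRE half-site and the CCAAT box on either strand. B2m is at chr2:122147537-122147686 (plus strand), H2-K1 at chr17:34000334-34000483 (minus strand), H2-D1 at chr17:35262944-35263093 (plus strand) and the Tap1 to Psmb9 stretch at chr17:34187331-34187555, read on the plus strand towards Tap1.
B2m: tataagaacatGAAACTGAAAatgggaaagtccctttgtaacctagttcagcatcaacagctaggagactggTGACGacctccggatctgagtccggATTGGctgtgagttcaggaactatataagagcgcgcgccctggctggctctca
H2-K1: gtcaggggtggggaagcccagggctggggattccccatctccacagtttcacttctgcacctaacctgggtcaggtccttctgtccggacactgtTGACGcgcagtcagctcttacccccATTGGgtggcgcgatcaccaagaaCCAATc
H2-D1: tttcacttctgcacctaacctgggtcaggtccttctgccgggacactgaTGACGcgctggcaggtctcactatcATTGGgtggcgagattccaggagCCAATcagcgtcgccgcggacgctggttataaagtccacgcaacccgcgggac
Tap1 and Psmb9: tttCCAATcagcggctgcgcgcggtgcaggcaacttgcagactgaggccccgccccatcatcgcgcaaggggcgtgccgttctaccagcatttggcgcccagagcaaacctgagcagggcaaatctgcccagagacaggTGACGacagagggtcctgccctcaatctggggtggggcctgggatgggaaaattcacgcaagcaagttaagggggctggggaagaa

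Reads on genes numbered 8264587 to 9635514 in the KPF and 8116539 to 8725132 in the KPYYF libraries. Yap1, the floxed gene, fell in KPYYF libraries, to 3.55 ± 3.26 CPM (SD, n = 3), where KPF libraries had 99.0 ± 41.7 CPM (SD, n = 6), with a log2 fold change of -4.79 (SE 0.72, adjusted p = 0.0159 in edgeR's quasi-likelihood test), and without KPYYF library 4891 its adjusted p was 0.0553. CPM are read counts scaled by TMM to library totals of 1000000 reads on genes, and 3 counts, the limit that a count of 0 allows, are 0.311 to 0.370 CPM before it. Libraries stood apart: KPF 4601 had 2895 summed CPM of 6 leukocyte markers (178 to 387 in the other 8), 10748 of 12 macrophage and dendritic cell markers (417 to 1693) and 4409 of 7 MHC class II genes (91.3 to 384). KPF 4504s had 19010 CPM of acinar markers, and KPYYF 4449 5191, against at most 950 in the others. Summed epithelial markers were 3498 to 9136 CPM in KPF and 620 to 1874 CPM in KPYYF libraries, and 3 of 8 such markers had an adjusted p under 0.05, all lower in KPYYF. In sorted bulk RNA, fewer cells of a type and less RNA per cell cannot be told apart.

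No class I gene differed between KPYYF and KPF cells at an adjusted p under 0.05. Among all 14105 genes tested, 0.305% were called higher and 0.794% lower in KPYYF by this rule. By the rule of the study's methods, a fold change over 2 and a p under 0.05, taken here as unadjusted, 0 of the 10 passed in edgeR, where 4.2% of all genes were called higher and 9.2% lower. With DESeq2, the tool of the methods, 1 passed, B2m with a log2 fold change of 1.17. The share of all genes past this rule was counted only in edgeR with all 9 libraries. The log2 fold changes (KPYYF minus KPF) were above 0 in 7 members and below 0 in 3, with a median of 0.47 against -0.07 for all genes tested. The groups overlapped in each of the 10, while every KPYYF library was above every KPF library in 3.92% and below in 5.18% of all genes. What differed was the libraries: KPYYF 4449 and KPF 4601 were the highest 2 of the 9 libraries in 8 of the 10 members, an order found in 3.62% of all genes.

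The heavy chains H2-K1 and H2-D1 hold the peptide and meet the T cell receptor. H2-K1 (ENSMUSG00000061232, chromosome 17 from 33996017 to 34000347, GRCm38) had 73.3 to 497 CPM in KPF libraries, with a median of 144 CPM, and 553, 47.5 and 33.8 CPM in KPYYF libraries 4449, 4891 and 4938. KPYYF 4449 was thus above and the other KPYYF libraries were below every KPF library. The log2 fold change was 0.10 (SE 0.90, 95% interval -1.91 to 2.11, adjusted p = 0.976 in edgeR). Without 4449 it was -2.28, with an unadjusted p of 0.0098 and an adjusted p of 0.149 in edgeR, and it was also below 0 without KPF 4269, 4435 or 4504h. H2-D1 (ENSMUSG00000073411, chromosome 17 from 35262730 to 35267499) had 127 to 928 CPM in KPF libraries, with a median of 191 CPM, and 1317, 166 and 96.0 CPM in KPYYF 4449, 4891 and 4938. Again 4449 was above every KPF library and 4938 below every one, with 4891 among the lower KPF libraries. Its log2 fold change was 0.73 (SE 0.87, 95% interval -1.23 to 2.68, adjusted p = 0.752 in edgeR), and -1.28 without 4449. The last 500 bases of the longest coding transcript, where 3′ end libraries read, shared 0.443% of their 50-base words with another gene for H2-K1, and that gene was H2-D1. For H2-D1 the share was 9.53%, spread over 80 genes, and it was 0 for the other 8 members.

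B2m, the light chain of the class I molecules, had the lowest p of the 10 members. B2m (ENSMUSG00000060802, chromosome 2 from 122147686 to 122153083) had 88.5 to 437 CPM in KPF libraries, with a median of 234 CPM, and 1122, 217 and 197 CPM in KPYYF 4449, 4891 and 4938. Only 4449 lay outside the KPF range, and the other pair lay just below the KPF median. The log2 fold change was 1.15 (SE 0.59, 95% interval -0.14 to 2.44, unadjusted p = 0.0761 and adjusted p = 0.371 in edgeR). It was -0.16 without 4449, and between 1.43 and 1.54 without KPF 4601, KPYYF 4891 or KPYYF 4938, where B2m passed the rule of the methods. Between KPYYF libraries, 4449 had 5.17 and 5.69 times the B2m of 4891 and 4938, against 11.6 and 16.4 times their H2-K1.

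**Figure D1:**
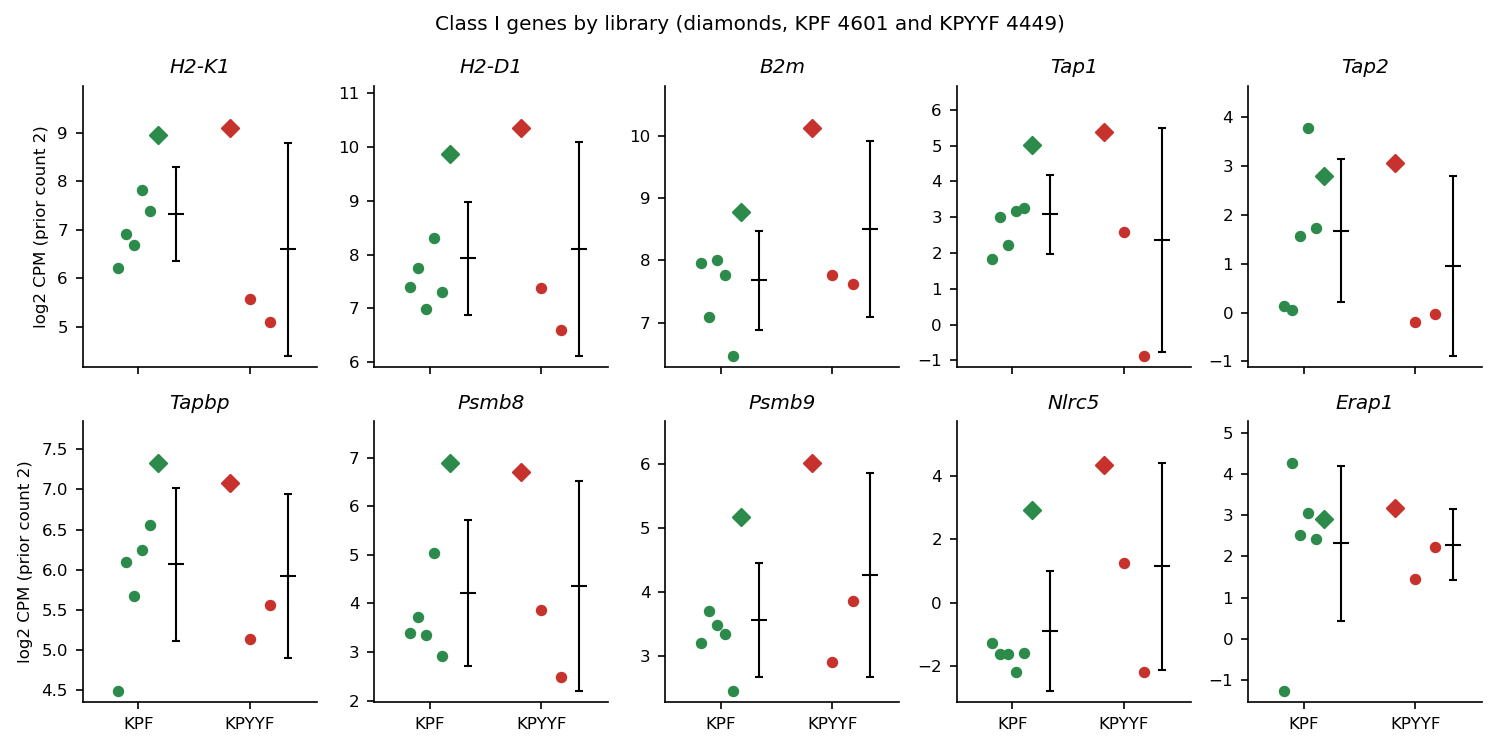
Level of each of the 10 class I genes, as log2 CPM with a prior count of 2, in the 6 KPF (green) and 3 KPYYF (red) libraries, with the mean ± SD of each group in black. Diamonds mark KPF 4601 and KPYYF 4449, which are the highest 2 libraries in 8 of the 10 genes, with Tap2 and Erap1 as the exceptions.

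Tap1 and Tap2 form the transporter that brings peptides into the endoplasmic reticulum. Tap1 (ENSMUSG00000037321, chromosome 17 from 34187553 to 34197225) had 3.30 to 32.0 CPM in KPF libraries, with a median of 8.26 CPM, and 41.8, 5.78 and 0.328 CPM in KPYYF 4449, 4891 and 4938. The value of 4938 stood on 3 counts, against 353 in 4449, so the KPYYF libraries held both the highest and the lowest of the 9 values. The groups differed by a log2 fold change of 0.55 (SE 1.04, 95% interval -1.71 to 2.80, adjusted p = 0.859 in edgeR) and -1.83 without 4449. Tap2 (ENSMUSG00000024339, chromosome 17 from 34203527 to 34216321) had 0.817 to 13.6 CPM in KPF libraries, with a median of 2.92 CPM, and 8.17, 0.654 and 0.765 CPM in KPYYF 4449, 4891 and 4938. Here the highest library was KPF 4504s, then 4449, and both other KPYYF libraries were below every KPF library. Its log2 fold change was -0.54 (SE 1.27, 95% interval -3.28 to 2.21, adjusted p = 0.892 in edgeR), -2.68 without 4449 and 0.17 without 4504s. The subunits of the same transporter thus did not follow the same order of libraries, and 320 counts in all stood behind Tap2 against 945 behind Tap1.

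Tapbp, or tapasin, holds empty class I molecules at the transporter until they are loaded. Tapbp (ENSMUSG00000024308, chromosome 17 from 33915899 to 33929292) had 22.2 to 161 CPM in KPF libraries, with a median of 71.9 CPM, and 135, 35.0 and 47.0 CPM in KPYYF 4449, 4891 and 4938. KPF 4601 was the highest library and 4449 next, and the lowest was KPF 4269. The log2 fold change was -0.12 (SE 0.56, 95% interval -1.34 to 1.10, adjusted p = 0.953 in edgeR), the smallest standard error of the 10, and it was above 0 without KPF 4601, KPYYF 4891 or KPYYF 4938. Erap1 is the peptidase that trims peptides to class I length. Erap1 (ENSMUSG00000021583, chromosome 13 from 74639568 to 74693201) had 0.194 to 19.1 CPM in KPF libraries, with a median of 6.39 CPM, and 8.76, 2.51 and 4.48 CPM in KPYYF 4449, 4891 and 4938. All KPYYF values lay within the KPF range, which KPF 4269 with 2 counts and KPF 4435 with 187 counts set. Its log2 fold change was -0.52 (SE 1.03, 95% interval -2.75 to 1.71, adjusted p = 0.866 in edgeR) and 0.01 without 4435.

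Psmb8 and Psmb9 replace the catalytic subunits Psmb5 and Psmb6 in the immunoproteasome, which changes the peptides that are made. Psmb8 (ENSMUSG00000024338, chromosome 17 from 34197721 to 34201454) had 7.29 to 118 CPM in KPF libraries, with a median of 11.6 CPM, and 105, 14.4 and 5.36 CPM in KPYYF 4449, 4891 and 4938. KPF 4601 and KPYYF 4449 stood far above the other 7 libraries, of which the highest, KPF 4504s, had 32.4 CPM. The fitted log2 fold change was 0.39 (SE 1.08, 95% interval -2.01 to 2.78, adjusted p = 0.91 in edgeR), 1.50 without 4601 and -1.68 without 4449. Psmb9 (ENSMUSG00000096727, chromosome 17 from 34181987 to 34187764) had 5.30 to 35.6 CPM in KPF libraries, with a median of 10.5 CPM, and 64.2, 7.31 and 14.3 CPM in KPYYF 4449, 4891 and 4938. It was highest in 4449 and then in 4601, with the other 7 libraries between 5.30 and 14.3 CPM. The log2 fold change was 1.04 (SE 0.70, 95% interval -0.48 to 2.55, adjusted p = 0.513 in edgeR), 1.57 without 4601 and -0.36 without 4449. Psmb9 and Tap1, which share the stretch printed above, differed in 4938, the lowest library for Tap1 and the third highest for Psmb9.

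Nlrc5, the transactivator of class I genes, was near absent in most libraries. Nlrc5 (ENSMUSG00000074151, chromosome 8 from 94434356 to 94527272) had 20.2 CPM, or 171 counts, in KPYYF 4449, 2.18 CPM, or 20 counts, in KPYYF 4891, and 0 counts in KPYYF 4938. In KPF libraries it had 7.41 CPM, or 51 counts, in 4601 and 0 to 2 counts in the other 5, which is under the limit of 3 counts. It was thus above this limit in 3 of the 9 libraries, and of these 4449 and 4601 were also the highest 2 for H2-K1, H2-D1, B2m, Tap1, Tapbp, Psmb8 and Psmb9. The groups differed by a log2 fold change of 2.51 (SE 1.85, 95% interval -1.49 to 6.50, adjusted p = 0.558 in edgeR) and 6.01 without 4601 (adjusted p = 0.142 in edgeR), and it could not be tested without 4449 for lack of counts.

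**Figure D2:**
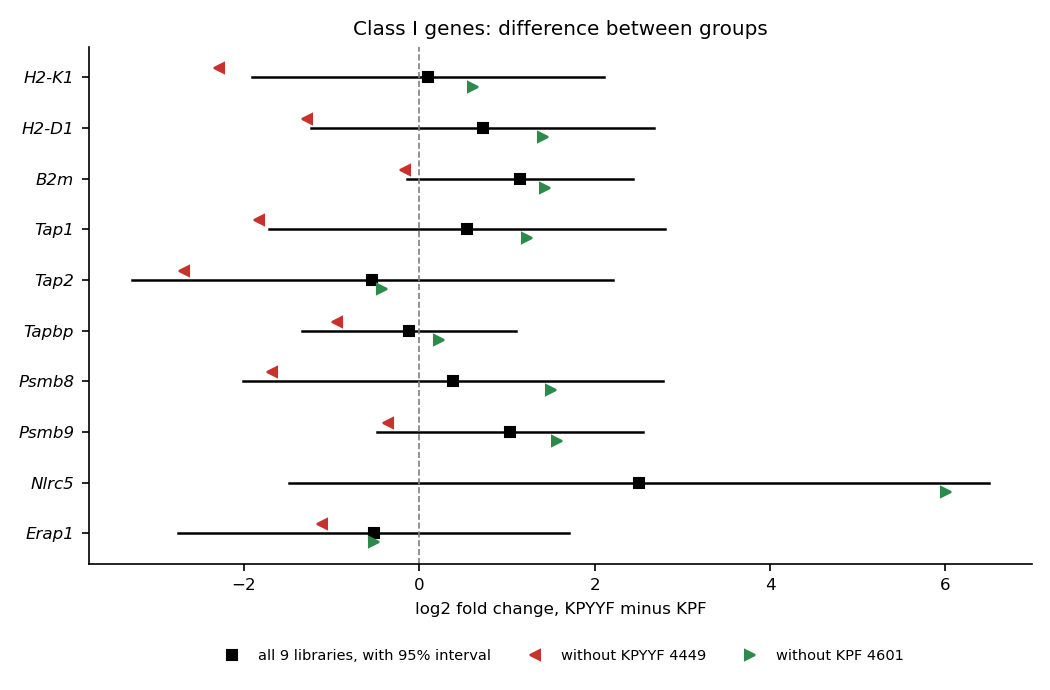
Log2 fold change between KPYYF and KPF libraries (squares, with the 95% interval as a line) for each class I gene, and the same without KPYYF 4449 (red) or without KPF 4601 (green). All 10 intervals include 0, and without 4449 the 9 genes that could be tested are below 0.

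The direction of the comparison rested on KPYYF 4449. With it left out, 9 of the 9 members that could be tested were lower in KPYYF, with a median log2 fold change of -1.28, and 0 had an adjusted p under 0.05 in edgeR. With KPF 4601 left out, 8 of 10 were higher, the median was 1.32, and B2m, Psmb9 and Nlrc5 passed the rule of the methods, with 0 adjusted p under 0.05. The share of all genes past that rule without 4601 was not counted. KPYYF 4449 was among the highest 2 libraries in 10 of 10 members (26.9% of all genes) and the highest in 6 (16.0%), and KPF 4601 was among the highest 2 in 8 (23.3%). At the other end, KPYYF 4938 was the lowest library in 5 members (16.0% of all genes), and 4891 and 4938 were both below the KPF median in 7 (37.1%). The mean log2 CPM of the 10 members was 6.54 in 4449 and 6.06 in 4601, and 3.04 to 4.63 in the other 7 libraries, with 3.77 in 4891 and 3.04 in 4938. With limma-voom, 7 of the 10 were lower and the median was -0.58. Its quality weights were 0.502 for 4449, 0.503 for KPF 4269, 2.44 for KPF 4504s and 0.935 to 1.27 for the others. The part of single weights in that median was not tested. Xist, made only by cells with an inactive X chromosome, had at least 3452 reads in all KPYYF libraries and in KPF 4435, 4504h and 4504s and at most 159 in the other KPF libraries, and within the high group 8 of 10 members were higher, with a median of 1.16 and 0 adjusted p under 0.05 in edgeR. The low group held KPF libraries only and gave no value. The mean log2 CPM of the members spanned 3.50 among the 3 KPYYF libraries, and ran from 3.21 to 6.06 among the KPF libraries. The value of 4938 includes 0 counts of Nlrc5 and 3 counts of Tap1.

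The highest libraries, 4449 and 4601, differed in what else they carried. In KPF 4601, all 6 leukocyte, all 12 macrophage and dendritic cell and all 7 MHC class II genes were at their highest of the 9 libraries, for example H2-Aa, a class II chain, at 1597 CPM against at most 166 CPM elsewhere. In KPYYF 4449, none of these 25 was at its highest, and 3 of the 6 leukocyte, 6 of the 12 macrophage and dendritic cell and 6 of the 7 class II genes were above their KPF median. The summed level of leukocyte markers was 233 CPM in 4449, and Ptprc (CD45), which marks leukocytes, had 75.4 CPM against a KPF median of 94.1 CPM. The summed class II level of 4449, 384 CPM, was the second highest, above the 91.3 to 279 CPM of the other 7 libraries, and 5 of the 7 class II genes were second highest there. Interferon-stimulated genes showed the other order: their summed level was 1688 CPM in 4449, 461 CPM in 4601, 438 CPM in KPYYF 4891 and 87.1 to 258 CPM in the other 6. Of the 37 tested, 29 were highest in 4449, against 16.0% of all genes. Only 31 of the 37 had enough counts to be tested without 4449, so the filter on counts favored 4449 in the rest. KPYYF 4891 and KPF 4601 had similar summed levels of interferon-stimulated genes, while their summed class I levels were 499 and 2229 CPM. Different genes made up these similar sums. Cxcl10 had 59.9 CPM in 4891 and 15.3 CPM in 4601, while Gbp7 had 17.4 and 62.7 CPM. The part of these markers and interferon-stimulated genes in the class I levels was not tested. All of the 6 leukocyte markers were above 0 counts in each library, while 3 to 8 of the 9 T, NK and B cell markers were at 0 in every library except 4601, where 0 were.

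**Figure D3:**
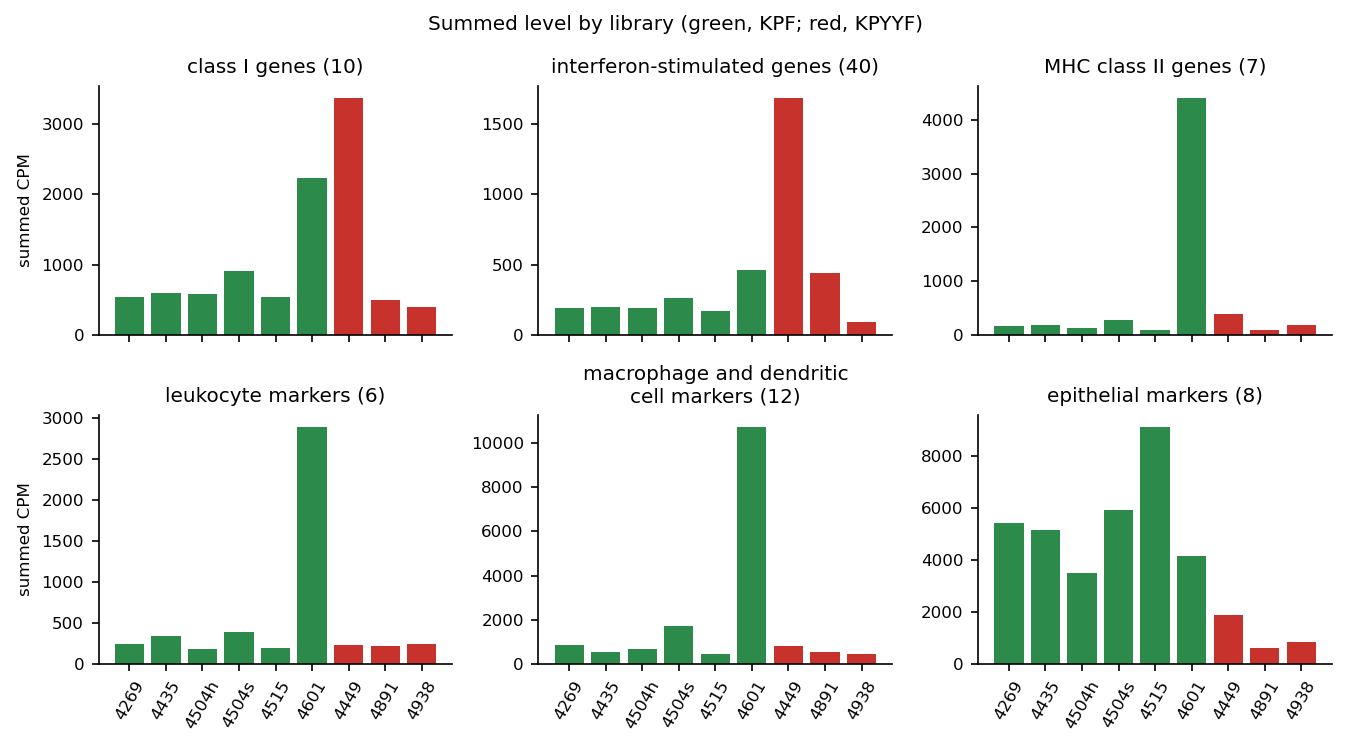
Summed CPM per library of the 10 class I genes and of lists of interferon-stimulated genes, MHC class II genes, leukocyte markers, macrophage and dendritic cell markers and epithelial markers, with the number of genes in brackets. Class I genes are high in both KPF 4601 and KPYYF 4449, class II and leukocyte genes in 4601, and interferon-stimulated genes in 4449.

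Ratios of members within a library do not depend on scaling between libraries, and 5 were tested with two-sided exact permutation tests over all 84 splits, which can reach a p of 0.0119. The log2 ratio of H2-K1 to B2m was -0.35 ± 1.00 (SD, n = 6) in KPF and -1.92 ± 0.80 (SD, n = 3) in KPYYF libraries, a difference of -1.56 (exact permutation p = 0.0714, adjusted over the 5 ratios 0.357). In KPYYF it was -1.02 in 4449, -2.19 in 4891 and -2.54 in 4938, so the last pair were below every KPF library and 4449 was not. H2-D1 to B2m differed by -0.65 (exact permutation p = 0.262, adjusted 0.655). The ratios of an immunoproteasome subunit to its constitutive counterpart differed by -0.23 for Psmb8 to Psmb5, 0.19 for Psmb9 to Psmb6 and -0.02 for Psmb10 to Psmb7 (exact permutation p = 0.762, 0.845 and 0.988). They varied by library instead: Psmb8 to Psmb5 was highest in KPF 4601, at 2.03, and lowest in KPYYF 4938, at -2.38, and Psmb9 to Psmb6 was highest in KPYYF 4449, at -1.76, and lowest in KPYYF 4891, at -5.62. Levels of the constitutive subunits Psmb5, Psmb6 and Psmb7 had log2 fold changes of 0.46, 0.48 and 0.54, with adjusted p of 0.431 to 0.696 in edgeR.

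**Figure D4:**
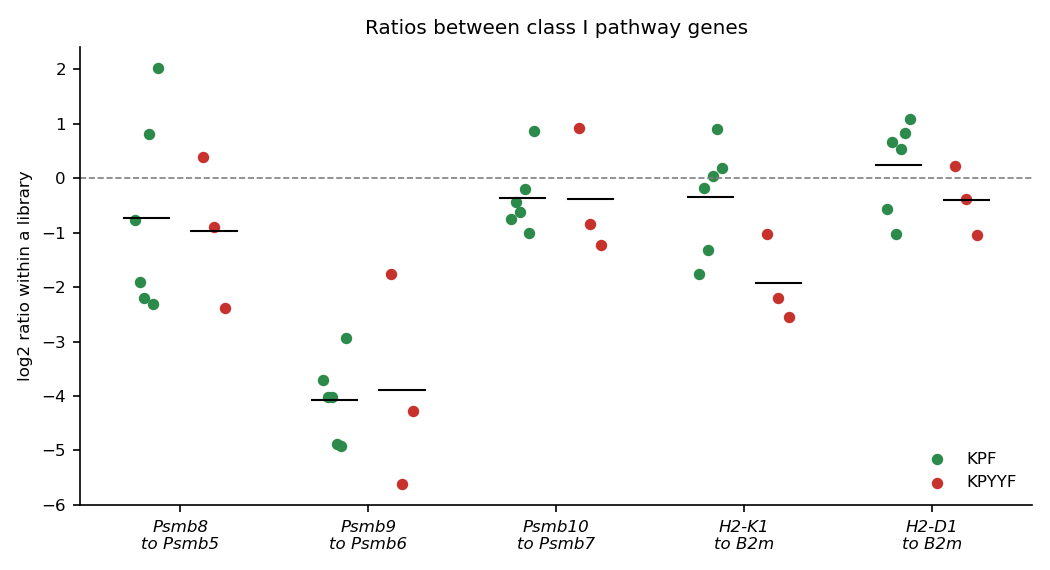
Log2 ratio of read counts between pairs of class I pathway genes within each of the 6 KPF (green) and 3 KPYYF (red) libraries, with group means as lines. The groups overlap in all 5 ratios, and the mean of H2-K1 to B2m is -0.35 in KPF and -1.92 in KPYYF libraries.

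The genes around the pathway were looked at in 8 lists with 116 genes, of which 105 could be tested. By adjusted p in edgeR, 2 were called, both ligands of immune cells and both lower in KPYYF. Among all genes tested, 0.305% were called higher and 0.794% lower. Icam1, which holds T cells at their target, had 28.4 to 91.0 CPM in KPF libraries and 13.4, 7.31 and 2.84 CPM in KPYYF 4449, 4891 and 4938. All 3 were below the KPF range, an order found in 5.18% of all genes. Icam1 fell by 2.75 on the log2 scale (SE 0.56, adjusted p = 0.0357 in edgeR). Nectin2, a ligand of NK cell and T cell receptors, had 51.9 to 140 CPM in KPF libraries and 24.5, 3.71 and 15.3 CPM in KPYYF 4449, 4891 and 4938. It fell by 2.72 (SE 0.58, adjusted p = 0.0422 in edgeR), and for both genes 4449 sat with the other KPYYF libraries, as it did not for class I genes. Both kept an adjusted p under 0.05 in 3 of 9 fits that each left out a library, those without KPF 4504h, KPF 4601 or KPYYF 4449, and without KPF 4269, 4435, 4504s or 4515 or KPYYF 4891 or 4938 the adjusted p was 0.0607 to 0.119 for Icam1 and 0.0582 to 0.146 for Nectin2. The other ligands had values below 0, from -0.30 for Cd47, an inhibitory signal to macrophages, to -5.85 for Cd86 (adjusted p = 0.17 in edgeR), a costimulatory ligand highest in KPF 4601 at 66.6 CPM, and the list's median over 9 genes tested was -2.20.

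Among the factors of the class I promoter, 0 of 13 tested had an adjusted p under 0.05 in edgeR, and the median log2 fold change was 0.02. Rfx5, a subunit of the RFX factor that works with Nlrc5, had a log2 fold change of 1.51 (SE 0.42, adjusted p = 0.11 in edgeR). It had 9.89 to 17.7 CPM in KPF libraries and 54.1, 33.3 and 22.4 CPM in KPYYF 4449, 4891 and 4938. Every KPYYF library was above every KPF library, an order found in 2 of the 13 factors and 3.92% of all genes. Irf1, an interferon-induced activator of class I genes, had 0.10 (SE 0.49, adjusted p = 0.955), and its highest library was KPF 4515, at 279 CPM. Ciita, the class II counterpart of Nlrc5, had 44.5 CPM in KPF 4601, 7.11 CPM in KPYYF 4449 and at most 5.00 CPM in the others (log2 fold change -1.44, adjusted p = 0.788). Among 13 genes of interferon receptors and their signalling, 0 were called in edgeR, the median was -0.28, and the lowest value was -1.76 for Ifngr1, a chain of the interferon gamma receptor (SE 0.48, adjusted p = 0.101 in edgeR). Ifngr1 had 64.1 to 215 CPM in KPF libraries and 66.8, 42.3 and 19.6 CPM in KPYYF 4449, 4891 and 4938, of which the last pair were below every KPF library.

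Over the 37 interferon-stimulated genes tested, the median log2 fold change was 1.82, with 0 called at an adjusted p under 0.05 and 10 past the rule of the methods, all higher, where 4.2% of all genes passed it. Without KPYYF 4449 the median was 0.15 and 0 of the 31 that could be tested were past the rule as higher and 1 as lower, and with limma-voom the median was -0.01, with 3 higher and 1 lower. The values ran from 4.70 for Mx1, an antiviral GTPase, to -1.66 for Oasl1 (adjusted p = 0.219 and 0.468 in edgeR). Mx1 had 19.5 CPM in 4449 and at most 1.31 CPM in the others. With 165 of its 189 counts in 4449, Mx1 passed the filter on counts only through that library. Of the other heavy chains of the class I fold, 13 of 16 were tested and 0 called, with a median of -0.50. They ran from 2.80 for H2-T22, a nonclassical chain (adjusted p = 0.157 in edgeR), to -2.39 for Hfe, a regulator of iron uptake. H2-T22 had 0.715 to 3.49 CPM in KPF libraries and 37.3, 3.93 and 3.83 CPM in KPYYF 4449, 4891 and 4938. Every KPYYF library was thus above every KPF library, an order found in 3.92% of all genes. Chaperones of folding and loading had a median of 0.11 over 7, from 0.59 for Tapbpl, a tapasin relative, to -0.34 for calreticulin (Calr), with 0 called. The other genes of peptide supply had a median of 0.43 over 10, from 1.07 for the aminopeptidase Lap3 to 0.08 for the aminopeptidase Npepps, with 0 called. Lap3 had 52.7 to 84.3 CPM in KPF libraries and 119, 148 and 163 CPM in KPYYF 4449, 4891 and 4938, above every KPF library (adjusted p = 0.0631 in edgeR), and Psmb10, the remaining immunoproteasome subunit, had 0.43 (adjusted p = 0.732).

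**Figure D5:**
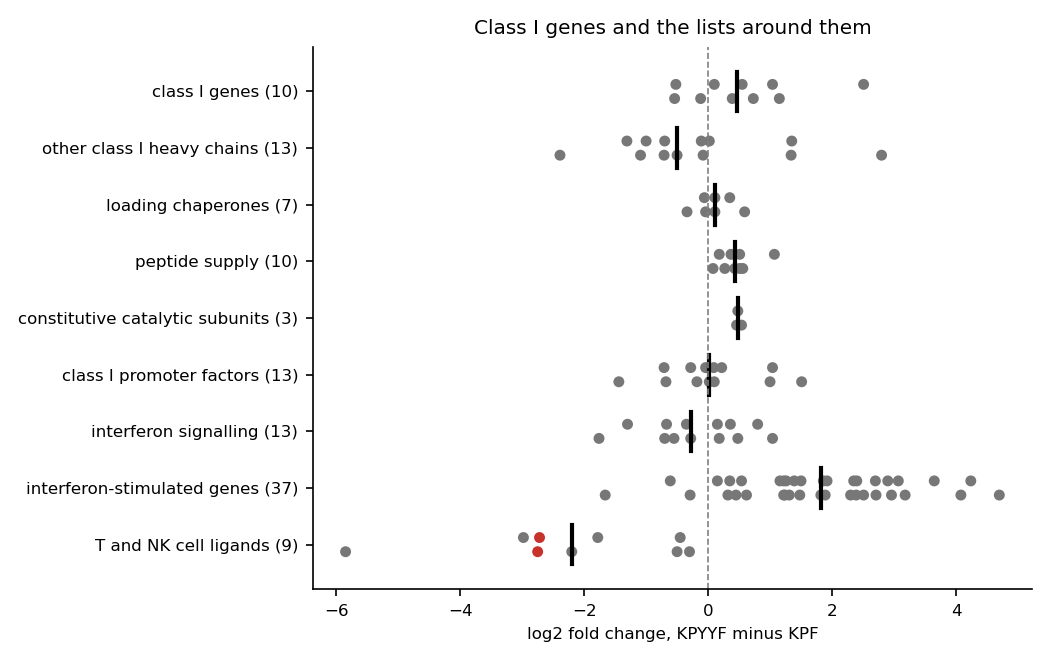
Log2 fold change between KPYYF and KPF libraries of each tested gene (points) in the class I genes and the 8 lists around them, with the number tested in brackets and the median as a line. Red points are Icam1 and Nectin2, which had an adjusted p under 0.05, and the median of the interferon-stimulated genes, 1.82, is 0.15 without KPYYF 4449.

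The pattern of the class I genes over the 9 libraries was set beside that of 8860 other genes with a mean of at least 10 CPM, as the root mean square difference between log2 CPM values centered on their mean. Among the nearest were Itpr2, an intracellular calcium channel, at 0.47, Rassf4 at 0.51, the proteasome activator subunit Psme1 at 0.64 and Parp10 at 0.64, where the median gene was at 1.32. Psme1 had 230 CPM in KPYYF 4449, 140 CPM in KPF 4601 and 37.5 to 85.0 CPM elsewhere. The pattern is the mean of the 10 members, so each member was set beside a mean that includes it. Among them, H2-D1 was nearest, at 0.28, then H2-K1 at 0.50 and Psmb8 at 0.53. Erap1 at 1.35 and Nlrc5 at 1.51 were farther from the pattern than the median gene. The measure counts the size of differences between libraries as well as their order, and Nlrc5 was highest in 4449 and then in 4601, as the pattern was.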

How the data were processed

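RNA of sorted GFP+ KPF and Tm+ KPYYF cells was, per the labels, made into QuantSeq (Lexogen) libraries, which read the 3′ ends of transcripts. The authors deposited 1 file per library, with counts of reads by Ensembl gene and no normalization (9 files). The submitters' processing notes name STAR, HTSeq and mm10, with no versions. The methods section describes BeadChip hybridization, while the values are whole numbers whose totals differ between libraries. Reads on genes were 37.3 to 42.0% of a file, and those without a unique alignment 43.8 to 53.4%, and rows that name no gene were left out. The strain background of the mice is not given in the sources used here, while H2-K1 and H2-D1 differ between strains.

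The members and gene lists were chosen with earlier results of these data known. Of 47643 identifiers, 47224 matched a symbol in GENCODE M21. The 14105 genes whose counts summed to 100 or more were compared by quasi-likelihood test in edgeR 4.0.16 (robust) with TMM scaling (factors 0.832 to 1.08) in R 4.3.3, without covariates, and adjusted by Benjamini-Hochberg over all genes tested at 0.05. All p values are two-sided, and intervals of counts and limits cover counting error only. Within-library ratios used a pseudocount of 0.5. The text names all members, Yap1, genes of the 8 lists with an adjusted p under 0.05, otherwise the largest and smallest log2 fold change of each list, Psmb5, Psmb6, Psmb7, Psmb10, Irf1, Rfx5 and Ciita, and the genes most like the members. A gene that this rule names and an allele of the mice are not reported here. Ptprc and H2-Aa, of the marker lists, were picked once values were known. The alternatives were DESeq2 1.42.0, RLE and upper quartile scaling, no filter, filterByExpr, limma-voom (limma 3.58.1), libraries 4504h and 4504s summed, the libraries with high Xist, a pseudocount of 1 for ratios, and each library left out. The tests were tested on simulated data. Figures were drawn with matplotlib 3.10.9.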

Additional observations from a re-analysis of the deposited data

Results flagged for a closer look

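Of 25 values over the 6 KPF libraries, 12 had a library whose gap to the next exceeded 0.625 of the whole range, Dixon's 95% critical value. The values were taken as CPM, not as log2 CPM. For normally distributed values, chance flags about 1 in 20 groups. Whether CPM meet this condition was not tested, so no chance rate is given for the 12. The values are not independent, since the same libraries recur. For 6 class I genes the library was KPF 4601: H2-K1 with 497 CPM against 73.3 to 224 CPM in the other KPF libraries, H2-D1 with 928 against 127 to 315 CPM, Tap1 with 32.0 against 3.30 to 9.38 CPM, Psmb8 with 118 against 7.29 to 32.4 CPM, Psmb9 with 35.6 against 5.30 to 12.9 CPM and Nlrc5 with 7.41 against 0 to 0.194 CPM. In CPM, B2m, Tap2, Tapbp and Erap1 had no such library. In log2 CPM, H2-K1 was 8.96 in 4601 and 6.20 to 7.81 in the other KPF libraries. That gap, and those of H2-D1, Tap1, Psmb8 and Psmb9, lay under 0.625 of the range. Nlrc5 stayed over it, with 2.93 in 4601 against -2.18 to -1.27. Erap1 also passed it, with -1.27 in KPF 4269, on 2 counts, against 2.41 to 4.27. Most of the class I flags thus depended on the scale.

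KPF 4601 also stood apart in summed CPM of leukocyte markers (2895 against 178 to 387), of macrophage and dendritic cell markers (10748 against 433 to 1693), of T, NK and B cell markers (125 against 0.102 to 23.9), of MHC class II genes (4409 against 91.3 to 279) and of interferon-stimulated genes (461 against 169 to 258). KPF 4504s stood apart in acinar markers, with 19010 against 63.9 to 950 CPM. The part of these cell type markers in the class I levels was not tested.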

How the results depend on the processing

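In each alternative to edgeR with TMM, 0 of the class I genes that could be tested had an adjusted p under 0.05. The number past the rule of the methods, 0, was 1 with DESeq2 (B2m, 1.17), limma-voom (H2-K1) and the high Xist libraries (Nlrc5, 6.49), and 0 to 3 with a library left out. The share of all genes past this rule was not counted in these alternatives. DESeq2 gave H2-D1 no adjusted p. With limma-voom the median was -0.58, and H2-K1 (-1.56), H2-D1 (-0.54), Tap1 (-1.86) and Psmb8 (-0.71) turned negative. Tapbp was 0.16 in the high Xist libraries. With a library left out, the median ran from -1.28 (without KPYYF 4449) to 1.32 (without KPF 4601), H2-K1 from -2.28 to 0.61, H2-D1 from -1.28 to 1.41, B2m from -0.16 to 1.54, Tap1 from -1.83 to 1.23, Tap2 from -2.68 to 0.17, Tapbp from -0.94 to 0.22, Psmb8 from -1.68 to 1.50, Psmb9 from -0.36 to 1.57, Nlrc5 from 2.25 to 6.01 and Erap1 from -1.11 to 0.01.

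Yap1 was -4.56 with limma-voom (adjusted p = 0.0886) and -5.78 to -4.31 with a library left out. In the 8 lists, 2 genes had an adjusted p under 0.05 in edgeR, 11 with DESeq2 and 0 with limma-voom or in the high Xist libraries. The number was 1 with 4504h and 4504s summed and 0 to 2 with a library left out. Among all 14105 genes tested, DESeq2 called 269 higher and 928 lower, and edgeR called 43 higher and 112 lower. In the lists, 17 of the 105 genes tested passed the rule of the methods in edgeR, 13 higher and 4 lower. Among all genes tested, 4.2% were higher and 9.2% lower by this rule. Interferon-stimulated genes made up 10 of the 13. The number of 17 was 9 with limma-voom and 7 to 24 with a library left out. Over all alternatives, list medians ran from -1.01 to 0.10 for other heavy chains, -0.09 to 0.16 for chaperones, -0.10 to 0.72 for peptide supply, 0.35 to 0.64 for constitutive subunits, -0.26 to 0.27 for promoter factors, -0.49 to 0.01 for interferon signalling, -0.01 (limma-voom) to 2.40 for interferon-stimulated genes and -2.77 to -1.65 for ligands. The ratio of Psmb8 to Psmb5 was 0.14 in the high Xist libraries and -0.91 to 0.48 with a library left out, Psmb9 to Psmb6 -0.87 to 1.06, Psmb10 to Psmb7 0.04 and -0.67 to 0.40, H2-K1 to B2m -2.01 to -1.25 and H2-D1 to B2m -0.96 to -0.33. Where the cause of a change is not given by the library left out, the cause was not tested. No paired analysis was possible because the columns carry mouse numbers that differ between the groups. Depth limits Nlrc5, with 247 counts in all, and Tap2, with 320.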
